A study of Homo sapiens with 3 samples.

Results

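The genes PIK3C3, RIT2, SYT4 and SETBP1 lie in that order on the telomeric side of a captured region of human chromosome 18, and their contacts with that region are described here. Contacts were counted between HindIII restriction fragments, the pieces left when the enzyme cuts DNA at each AAGCTT site. Every target fragment was assigned to a gene if it lay within 20 kb of the gene body on GRCh37. By that rule 391 target fragments were chosen of the 3162 around the captured region and of 17969 around all 6 captured regions of the study. PIK3C3 held 67 of them, RIT2 154, SYT4 21 and SETBP1 149. The rule used gene positions only and no measured value.

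Capture Hi-C ligates DNA ends that lie near each other in fixed nuclei and then enriches, with probes, for ligated pairs in which one end falls in a region of interest. The count of such pairs falls with distance along the chromosome, so a gene has to be compared with other sequence at the same distance. PIK3C3 encodes the class III phosphatidylinositol 3-kinase, which makes the lipid that marks early endosomes and forming autophagosomes. RIT2 encodes a small GTPase of the Ras superfamily that is found mainly in neurons. SYT4 encodes a synaptotagmin, a membrane protein of secretory vesicles. SETBP1 encodes a nuclear protein that binds the SET oncoprotein, and mutations in it occur in myeloid cancers and in a developmental disorder.

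The study asked which sequences contact breast cancer risk loci on other chromosomes, and the labels gave no role for the chromosome 18 region. The lines were BT483 and SUM44, both labelled breast cancer, and GM06990, labelled lymphoblastoid. All were fixed for 5 min in formaldehyde at 2%. SUM44 was grown without phenol red and with estradiol at 1 nM, BT483 with insulin, and GM06990 with neither addition. BT483 nuclei were released with trypsin and those of the other lines with a dounce. Lysis, medium and line therefore cannot be told apart in either comparison with BT483. In SUM44 against GM06990 this release step was shared, but medium and line cannot be told apart. Each line was a single sample holding 2 replicates, given as separate count columns (n = 2). The labels do not say whether these came from different cultures, and p-values therefore measure only the spread between these columns, which may be technical. No transcript was measured, and the counts say nothing of whether any of the 4 genes was expressed.

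The captured region ran from 38494518 to 39252983 (GRCh37) and held 259 captured fragments, of which 258 had counts. Its contacts with sequence within 5 Mb on either side numbered 52331 (replicate 1) and 203165 (replicate 2) for BT483. GM06990 had 104439 and 106628, while SUM44 reached 231457 and 203287. The first BT483 replicate was thus the shallowest, and the BT483 replicates differed most from each other. The chi-square of replicate 1 against replicate 2 over target fragments was 2.32 per degree of freedom in BT483, 1.40 in GM06990 and 1.11 in SUM44, where 1 is sampling noise. Since no molecular identifiers marked the pairs before amplification, every interval below covers the error of counting alone.

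Each gene start can be placed on a fragment, and the promoter sequences are shown to mark where the restriction enzyme cuts around those starts. RefSeq entries (GRCh38.p14) were found for all 4 genes, with 300 bases each, from 250 before to 50 after the start. The cut site, which reads alike on both strands, is in capitals where it occurs. It is present in 5.84% of 35116 RefSeq promoters of that length. PIK3C3 (chr18:41954984-41955283, plus strand) has no cut site in the window and 21 CpG dinucleotides, against a median of 14 over all promoters. SYT4 (chr18:43277441-43277740, minus strand) has 1 cut site, 111 bases before the start. SETBP1 has 2 promoter entries, each with 1 cut site. The first (chr18:44680638-44680937, plus strand) has it 201 bases before the start and is the one printed.
PIK3C3: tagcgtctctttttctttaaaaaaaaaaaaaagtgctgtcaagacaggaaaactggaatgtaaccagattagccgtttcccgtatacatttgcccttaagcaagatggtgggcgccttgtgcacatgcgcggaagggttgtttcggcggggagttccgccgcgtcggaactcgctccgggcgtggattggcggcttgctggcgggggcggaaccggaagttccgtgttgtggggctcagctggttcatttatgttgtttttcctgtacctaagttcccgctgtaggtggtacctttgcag
SYT4: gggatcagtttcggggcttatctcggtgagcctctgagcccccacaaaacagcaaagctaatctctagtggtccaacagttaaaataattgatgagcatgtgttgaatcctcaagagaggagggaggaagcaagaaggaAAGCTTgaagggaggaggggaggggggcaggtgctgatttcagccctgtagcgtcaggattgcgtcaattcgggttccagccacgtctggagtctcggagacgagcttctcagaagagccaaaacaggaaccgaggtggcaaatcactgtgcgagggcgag
SETBP1: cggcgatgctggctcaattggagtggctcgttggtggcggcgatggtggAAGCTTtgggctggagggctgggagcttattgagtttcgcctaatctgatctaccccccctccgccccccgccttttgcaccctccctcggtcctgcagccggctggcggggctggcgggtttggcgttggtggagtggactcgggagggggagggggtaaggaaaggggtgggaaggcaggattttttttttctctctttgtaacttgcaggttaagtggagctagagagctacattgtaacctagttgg
RIT2 has no cut site in its window and 8 CpG dinucleotides.

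The start of PIK3C3 lay on the fragment from 39533936 to 39537538, at 1263 bp from the nearest fragment border. The start of RIT2 lay on that from 40694099 to 40696422, at 765 bp from a border. For SYT4 and SETBP1 a border came close to the start, at 53 bp and 210 bp. The SETBP1 start was on the fragment from 42260653 to 42263578. For SYT4 the sources place the start on different sides of a border. By the GRCh37 gene body it lay on the fragment from 40857562 to 40859340, with the border 53 bp into the gene. In the RefSeq window the cut site is 111 bases before the start, which would put the start on the neighbour from 40853456 to 40857561. Both fragments are therefore given below. Borders come from the deposited tables on GRCh37 and the promoter windows from a later build, so the distances are given side by side and were not matched.

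PIK3C3, the nearest gene, took a larger part of the contacts in the breast cancer lines than in the lymphoblastoid line. Its stretch of fragments, from 39514479 to 39681464, began 262 kb beyond the captured region. It received 1454 and 6297 contacts in BT483, 2544 and 2428 in GM06990, and 8086 and 7131 in SUM44. As a part of all contacts of the region these were 2.78% and 3.10% in BT483, with 95% intervals (Clopper-Pearson, exact) of 2.64 to 2.92 and 3.02 to 3.18. In GM06990 they were 2.44% (2.34 to 2.53) and 2.28% (2.19 to 2.37), and in SUM44 3.49% (3.42 to 3.57) and 3.51% (3.43 to 3.59). The replicates of the 3 lines did not overlap, with SUM44 highest and GM06990 lowest.

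RIT2, at 1049 to 1460 kb from the captured region, received 1714 and 6328 contacts in BT483, 4115 and 4412 in GM06990, and 9421 and 7956 in SUM44. Its share was 3.20% ± 0.114 in BT483 (mean ± SD, n = 2), 4.04% ± 0.140 in GM06990 and 3.99% ± 0.111 in SUM44, so BT483 was below both other lines. SYT4, at 1576 to 1628 kb, received 196 and 887 contacts in BT483, 464 and 471 in GM06990, and 1154 and 981 in SUM44. Its share was 0.406% ± 0.0439, 0.443% ± 0.00181 and 0.491% ± 0.0113 in the same order of lines. SETBP1, at 2989 to 3414 kb, received 860 and 4912 contacts in BT483, 1062 and 1284 in GM06990, and 2757 and 2445 in SUM44. Its share was 1.64% and 2.42% in the BT483 replicates, which both stood above the 1.02% and 1.20% of GM06990 and the 1.19% and 1.20% of SUM44. Per kb of fragment length, the second BT483 replicate gave 37.7 contacts for PIK3C3, 15.1 for RIT2, 14.5 for SYT4 and 11.4 for SETBP1. The corresponding levels in the second GM06990 replicate were 14.5, 10.5, 7.72 and 2.99 contacts per kb, so the fall from SYT4 to SETBP1 was steeper there.

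All 4 genes had fewer contacts than the average target at their distance in every line, except SYT4 in SUM44. The distance-matched ratio divides a gene's contacts by those of other chromosome 18 targets whose distance from the captured region is within 10% of its own, on both sides. For PIK3C3 it was 0.436 and 0.562 in BT483, 0.444 and 0.405 in GM06990, and 0.480 and 0.483 in SUM44. The line means were 0.499 ± 0.0888, 0.425 ± 0.0276 and 0.482 ± 0.00198, and the ranges of BT483 and GM06990 overlapped. For RIT2 the ratio was 0.533 ± 0.0484 in BT483 and 0.539 ± 0.000231 in GM06990, but 0.941 ± 0.0201 in SUM44. For SYT4 it was 0.680 ± 0.0366, 0.660 ± 0.000426 and 1.03 ± 0.00672 in the same order of lines. For SETBP1 it was 0.448 ± 0.122, 0.245 ± 0.0286 and 0.319 ± 0.00209. In BT483 replicate 2 its 0.534 was above the 0.499 of RIT2. No test was made of these ratios, since fragments of the same library are not replicates.

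The ratios depended on the side that was matched. Against centromeric targets alone PIK3C3 stood at 0.485, 0.415 and 0.468 in BT483, GM06990 and SUM44. Against other telomeric targets it stood at 0.836, 0.785 and 0.916, but only 26 of its 67 fragments had such a match. RIT2 stood at 0.950, 1.05 and 0.985 against telomeric targets, with a match for 81 of 154 fragments, and SYT4 at 0.803, 0.826 and 0.926. SETBP1 stood at 1.10 ± 0.0378 in BT483, 0.833 ± 0.0732 in GM06990 and 0.909 ± 0.00513 in SUM44, so BT483 was the line where it reached its telomeric neighbours. The telomeric side as a whole had 0.740 ± 0.00903, 0.728 ± 0.0138 and 0.779 ± 0.00142 of the contacts expected from distance, against 1.29 ± 0.0281, 1.30 ± 0.0164 and 1.22 ± 0.00434 on the centromeric side.

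**Figure D1:**
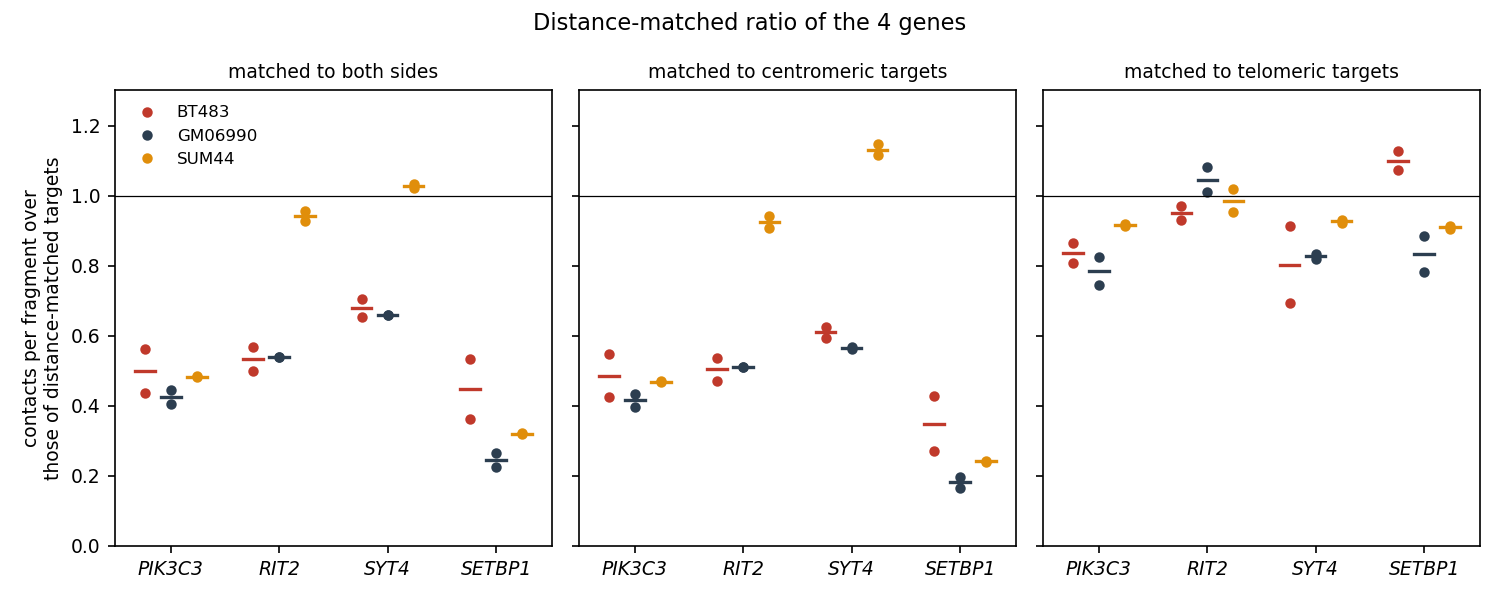
Distance-matched ratio of each gene (vertical axis, contacts per fragment over those of matched targets), with points for replicates and short lines for means, by line in colour. Matching is to targets of both sides, of the centromeric side and of the telomeric side from left to right. SUM44 stands apart at RIT2 (0.941) and SYT4 (1.03) in the left panel, and in the right panel the line means lie between 0.785 and 1.10.

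The SUM44 ratios of RIT2 and SYT4 went with a smaller gap between the sides in the targets they were matched to. Centromeric targets matched to RIT2 had 64.95 and 56.85 contacts per fragment in SUM44, slightly above the 62.9 and 51.0 of its telomeric matches. In GM06990 they had 52.3 and 56.2, against 27.1 and 27.4. Centromeric targets matched to SYT4 had 47.9 and 41.9 contacts per fragment in SUM44, below the 59.6 and 50.2 of its telomeric matches. For SYT4 in GM06990 the order was the other way, with 38.9 and 40.0 on the centromeric side against 27.0 and 26.9 on the telomeric side. In 100 kb bins the centromeric contacts of SUM44 fell from 1.20 times the expected number in both replicates at 1.05 Mb to 0.728 and 0.702 at 1.15 Mb. They were 0.670 and 0.628 at 1.55 Mb, where GM06990 had 1.24 and 1.22 and BT483 1.12 and 1.15. No such step was seen on the telomeric side of SUM44 between RIT2 and SYT4, where its bins from 1.05 to 1.65 Mb lay between 0.704 and 0.881.

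**Figure D2:**
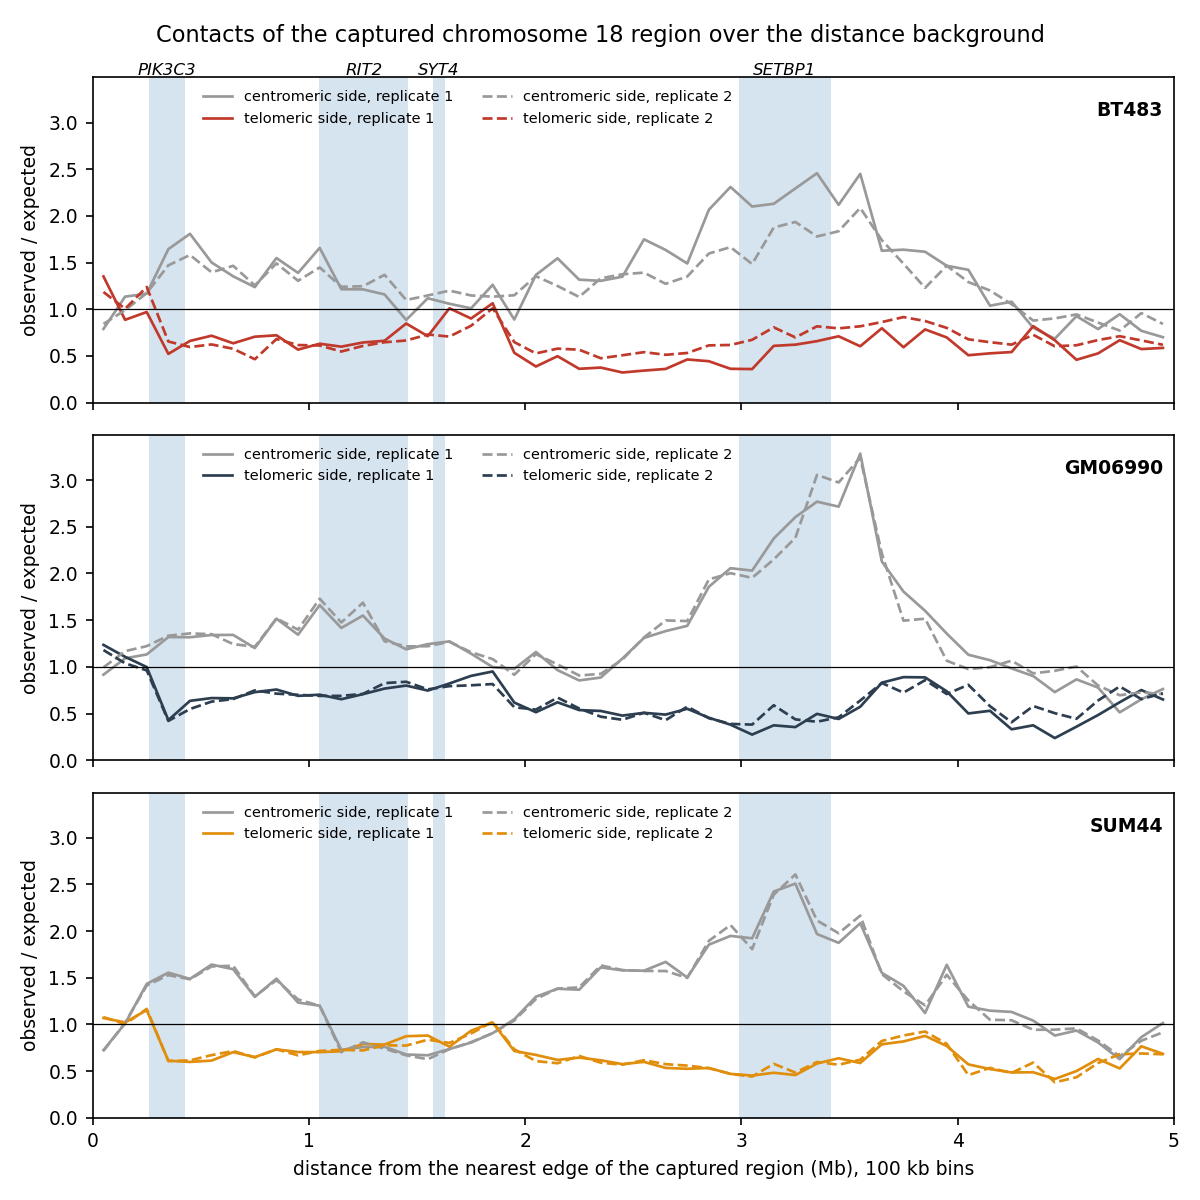
Observed over expected contacts (vertical axis) in 100 kb bins by distance from the nearest edge of the captured region in Mb (horizontal axis), for BT483, GM06990 and SUM44 from top to bottom. Coloured curves are the telomeric side, which holds the genes (shaded), grey curves the centromeric side, and solid and dashed curves replicates 1 and 2. The telomeric curves fall across the shaded PIK3C3 stretch in every line, and the grey curve of SUM44 drops to 0.728 and 0.702 at 1.15 Mb.

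A step in contact level fell in the PIK3C3 stretch and began shortly before the gene start. Expected numbers here come from a regression of counts on distance and on the capture efficiency of each captured fragment, fitted to each replicate. Between the captured region and PIK3C3 the contacts were 1.16 ± 0.00620 times expected in BT483, 1.16 ± 0.0395 in GM06990 and 1.09 ± 0.00334 in SUM44. Between PIK3C3 and RIT2 they were 0.633 ± 0.0475, 0.680 ± 0.0193 and 0.672 ± 0.00757. In the last 20 kb before the PIK3C3 start the level was 1.01 and 1.29 in BT483, 0.987 and 0.910 in GM06990, and 1.10 and 1.07 in SUM44. In the first 20 kb of the gene it was 0.644 and 0.880 in BT483, 0.498 and 0.467 in GM06990, and 0.801 and 0.768 in SUM44. In these 20 kb bins the breast cancer lines thus stood between the level before the gene and the level of GM06990 within it. By single fragments the fall began upstream of the start. In BT483, GM06990 and SUM44 the fragment from 39524654 to 39529349 stood at 1.31, 1.16 and 1.17. The next, from 39529350 to 39533935, stood at 0.724, 0.662 and 0.758. Inside the gene, the fragment from 39546506 to 39548487 stood at 1.45, 0.791 and 1.34.

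The higher level of the breast cancer lines ran through the first part of PIK3C3 and faded toward its end. At 40 to 60 kb past the start BT483 averaged 0.708, GM06990 0.443 and SUM44 0.737. At 80 to 100 kb it was 0.454, 0.321 and 0.445, the lowest bin of the gene in all 3 lines. That bin held pieces of 7, 8, 10, 89 and 91 bp, at 0.135 to 0.563 in BT483 and 0.0138 to 0.182 in GM06990. Its fragments of 1000 bp or more stood at 0.606 to 0.844 in BT483, 0.502 to 0.659 in GM06990 and 0.625 to 0.767 in SUM44. The low value was thus not that of its longer fragments. In the 20 kb beginning 140 kb past the start, beyond the gene, the lines stood at 0.753, 0.673 and 0.734. With the gene cut into 3 equal parts, the first part had 0.759 ± 0.120 in BT483, 0.482 ± 0.0256 in GM06990 and 0.774 ± 0.00711 in SUM44, and the last part 0.478 ± 0.0449, 0.371 ± 0.0291 and 0.490 ± 0.00274. Replicates of the breast cancer lines and of GM06990 did not overlap in any of the 3 parts. These bins were not tested one by one.

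**Figure D3:**
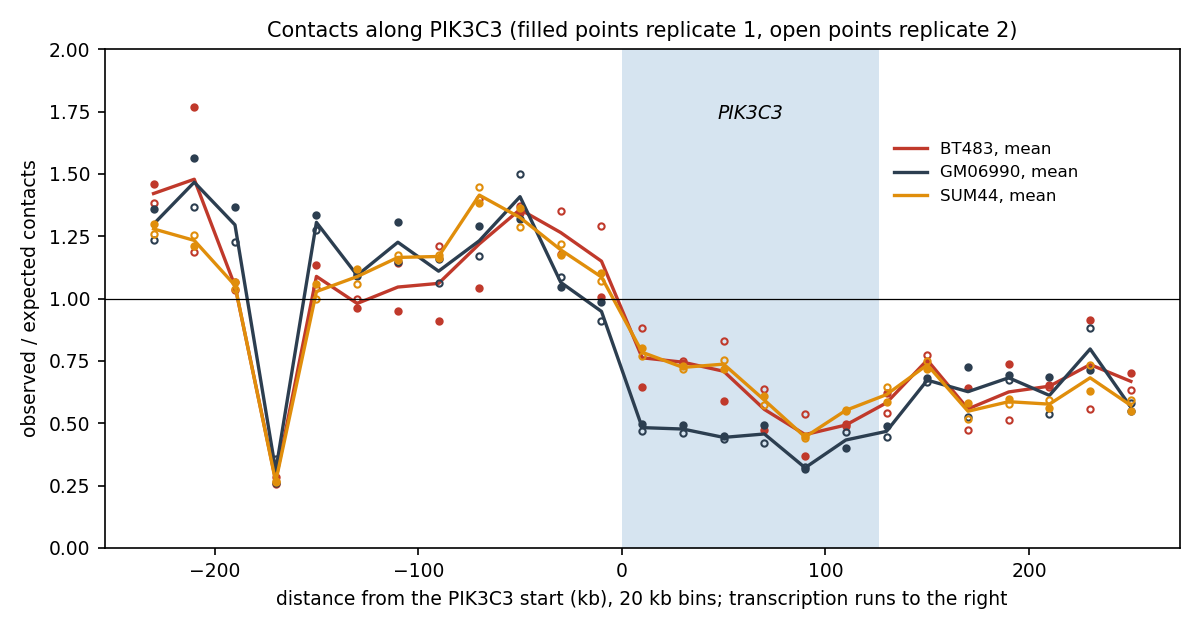
Observed over expected contacts (vertical axis) in 20 kb bins by distance from the PIK3C3 start in kb (horizontal axis), with the gene shaded, curves for line means, and filled and open points for replicates 1 and 2. In the first bin of the gene GM06990 stands at 0.482, BT483 at 0.762 and SUM44 at 0.784. A single low bin upstream of the gene, at 0.270, 0.309 and 0.265 in BT483, GM06990 and SUM44, is common to all lines.

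Tested as a whole, the PIK3C3 stretch had more contacts over the distance background in both breast cancer lines than in GM06990. The log2 change was 0.45 (SE 0.107, adjusted p = 0.0124) in BT483 and 0.48 (SE 0.106, adjusted p = 0.00631) in SUM44, by edgeR's quasi-likelihood F test with Benjamini-Hochberg adjustment over 606 windows and gene stretches of all 6 captured regions. Both replicates of each breast cancer line stood above both of GM06990. Of all windows, 14.9% were called higher and 15.8% lower in BT483 against GM06990, and 19.8% higher and 27.6% lower in SUM44 against GM06990, so a called stretch was common. Between BT483 and SUM44 the PIK3C3 stretch differed by -0.03 (SE 0.105, adjusted p = 0.893), where 12.7% of windows were called higher and 6.11% lower. Both comparisons with GM06990 share the same control columns. With edgeR's TMM scaling in place of the distance background the BT483 call was lost (0.21, adjusted p = 0.388), as it was without GM06990 replicate 2 (0.41, adjusted p = 0.0767). The SUM44 call was lost without SUM44 replicate 1 (0.47, adjusted p = 0.0537) and without SUM44 replicate 2 (0.48, adjusted p = 0.0544).

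**Figure D4:**
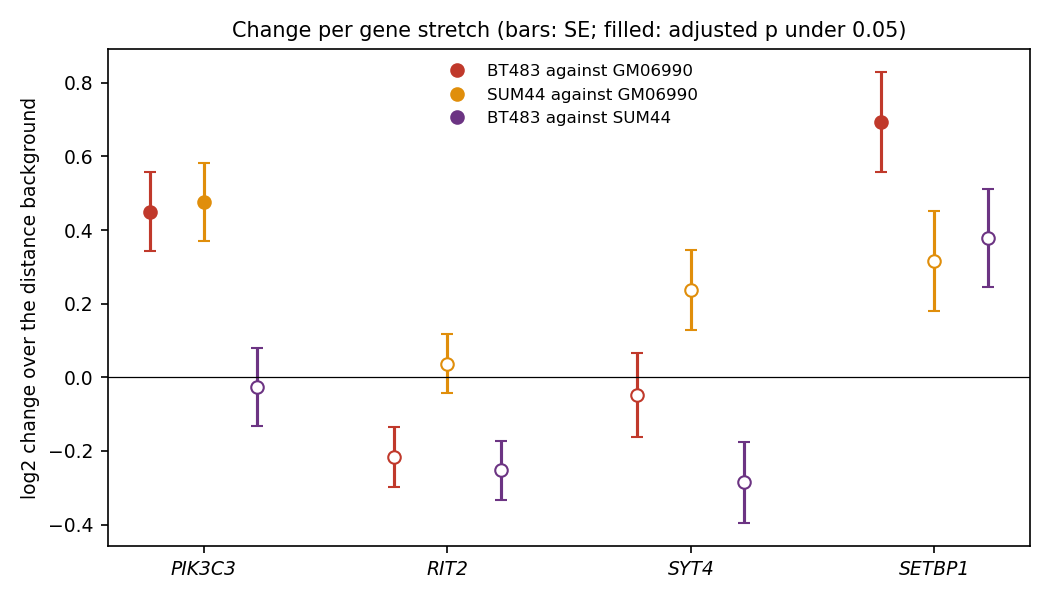
Log2 change over the distance background (vertical axis) for the stretch of each gene, with bars for SE, in the 3 comparisons of lines, where a positive value means more contacts in the line named first. Filled points passed the threshold, which were PIK3C3 in BT483 (0.45) and SUM44 (0.48) against GM06990 and SETBP1 in BT483 against GM06990 (0.69).

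Single fragments of PIK3C3 showed the same side. Fragments with at least 50 contacts in 1 line were tested, which left 66 of 67 for PIK3C3, 150 of 154 for RIT2, 19 of 21 for SYT4 and 35 of 149 for SETBP1. SUM44 alone brought 4 of these past the minimum for PIK3C3, 31 for RIT2, 3 for SYT4 and 6 for SETBP1. In GM06990 the minimum was reached by 51 of the 66 PIK3C3 fragments and 102 of the 150 RIT2 fragments. It was reached there by 10 of 19 for SYT4 and 0 of 35 for SETBP1. The remaining tested fragments passed only through 1 or both breast cancer lines. A higher count in those lines was thus in part selected, in both comparisons with GM06990. In BT483 against GM06990, 18 of the 66 PIK3C3 fragments (27.3%) were higher and 1 was lower, where 6.87% of all 10048 tested fragments were called higher and 6.26% lower, and 3.07% and 1.89% of those on chromosome 18. In SUM44 against GM06990, 21 (31.8%) were higher and 0 lower, where 11.1% of all tested fragments were called higher and 9.07% lower, and 5.7% and 8.42% of those on chromosome 18. For the lower direction 0 were called by DESeq2 too, and 36 of the 66 fragments had an unadjusted p under 0.05 in either direction. DESeq2 called 9 higher in each comparison. Between BT483 and SUM44 0 of 66 were called by edgeR or DESeq2, with 3 at an unadjusted p under 0.05. A log2 change above 0 was found for 58 of 66 fragments in BT483 and 62 of 66 in SUM44. The median change was 0.55 and 0.54, against 0.03 and 0.07 over all tested fragments. These fragments make up the stretch tested above and come from the same libraries, so their direction is no further support. With GM06990 in both comparisons, 13 fragments were higher in both, that is 13 of 18 and 13 of 21. The share of all tested fragments higher in both was not counted, so this overlap cannot be called particular to PIK3C3. Over all 4 genes 24 of 270 (8.89%) were higher in BT483, near the 6.87% of all tested fragments. In SUM44 25 (9.26%) were higher, below the 11.1% of all tested fragments. Both counts changed widely when 1 replicate was left out. The lower fragment in BT483, from 39608558 to 39619748, is named because it was the only such fragment. It had 15 and 39 contacts in BT483, 48 and 47 in GM06990, and 80 and 61 in SUM44, a log2 change of -0.90 in BT483 against GM06990 (SE 0.288, adjusted p = 0.0373).

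Fragment length moved with these changes, and its part in the fragment counts was not tested beyond the values given here. Over all regions, tested fragments under 200 bp had a median log2 change of 0.70 in BT483 and 0.64 in SUM44 against GM06990, and fragments of 1000 bp or more -0.05 and -0.03. The called PIK3C3 fragments had a median length of 322 bp in BT483 and 337 bp in SUM44, against 1656.5 bp for all tested PIK3C3 fragments. Among the 42 PIK3C3 fragments of 1000 bp or more the median change was 0.42 in BT483, with 8 called higher and 1 lower, and 0.45 in SUM44, with 7 called higher. On chromosome 18 outside the 4 genes, fragments of that length had a median of -0.09 and -0.05. Restricted to such fragments, the PIK3C3 stretch changed by 0.34 (adjusted p = 0.0395) in BT483 and 0.36 (adjusted p = 0.0186) in SUM44.

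The largest changes were on the shortest pieces. The 37 bp fragment from 39577431 to 39577467 had 15 and 50 contacts in BT483, 4 and 4 in GM06990, and 59 and 37 in SUM44. Its log2 change was 2.89 (SE 0.469, adjusted p = 0.000226) in BT483 and 2.41 (SE 0.459, adjusted p = 0.000512) in SUM44. The 8 bp fragment from 39619749 to 39619756 had 4 and 17, 0 and 2, and 32 and 24 contacts in the same order of lines, and a fitted change of 3.17 and 3.56, which rests on 2 contacts in GM06990 (0.0138 times expected, exact Poisson 95% interval 0.00168 to 0.05). The 10 bp fragment from 39633595 to 39633604 had 7 and 22, 1 and 4, and 38 and 31 contacts, and a change of 2.39 and 2.62. The 8 bp and 10 bp fragments reached 50 contacts in SUM44 only, so their SUM44 increase was selected by the minimum and supports nothing. The 37 bp fragment reached 50 contacts in the breast cancer lines only, so its increase was in part selected too. All 3 fragments are named for the size of their change only.

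The PIK3C3 start fragment itself did not pass the test. It had 20 and 99 contacts in BT483, 57 and 54 in GM06990, and 162 and 128 in SUM44, which is 0.677, 0.684 and 0.803 times expected. Its log2 change against GM06990 was -0.06 (SE 0.253, adjusted p = 0.907) in BT483 and 0.23 (SE 0.227, adjusted p = 0.521) in SUM44. The highest ratios were upstream of it. The fragment from 39516110 to 39520791 had 55 and 236 contacts in BT483, 121 and 112 in GM06990, and 273 and 214 in SUM44, or 1.61, 1.40 and 1.31 times expected, the highest of the gene in BT483 and GM06990. In SUM44 the fragment from 39521381 to 39524614 was highest, at 1.40 times expected, with 272 and 245 contacts.

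**Figure D5:**
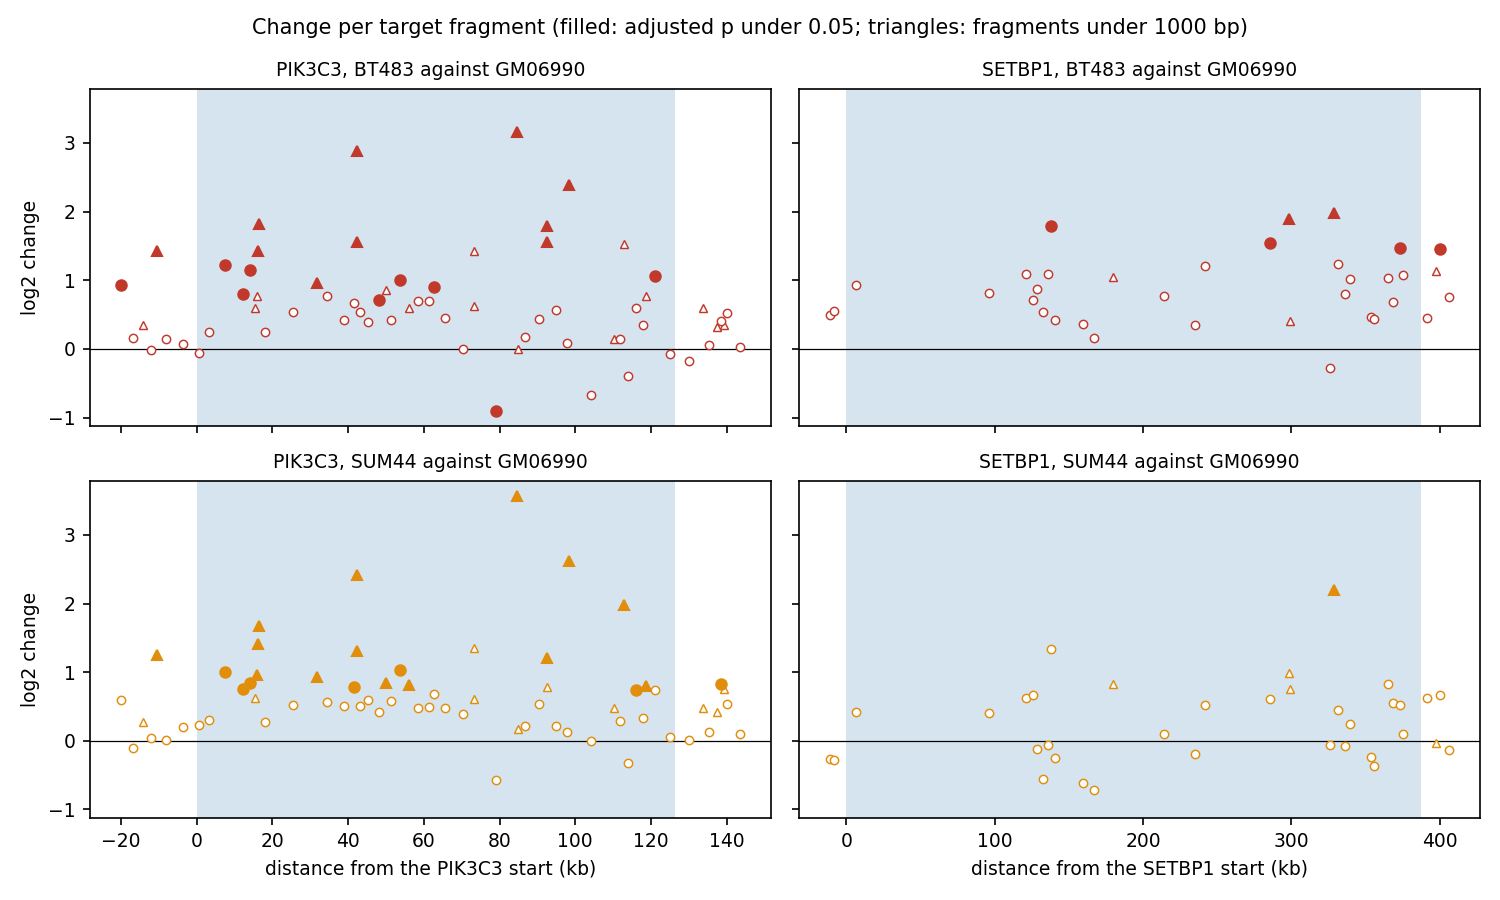
Log2 change of each tested target fragment (vertical axis) by distance from the gene start in kb (horizontal axis) for PIK3C3 (left) and SETBP1 (right), in BT483 (top) and SUM44 (bottom) against GM06990. Filled marks passed the threshold and triangles are fragments under 1000 bp. For PIK3C3, 18 fragments in BT483 and 21 in SUM44 are filled above 0, and the highest marks are triangles.

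RIT2 as a whole showed no called difference between lines. Its stretch had 0.654 and 0.600 times the expected contacts in BT483, 0.712 and 0.743 in GM06990, and 0.759 and 0.733 in SUM44. Both BT483 replicates were below those of the other lines. From the first to the last of 3 equal parts of the gene the level went from 0.653 to 0.575 in BT483, from 0.813 to 0.682 in GM06990 and from 0.804 to 0.720 in SUM44. The log2 change of the stretch was -0.22 (SE 0.0809, adjusted p = 0.0689) in BT483 against GM06990, 0.04 (SE 0.0802, adjusted p = 0.737) in SUM44 against GM06990 and -0.25 (SE 0.0806, adjusted p = 0.0540) in BT483 against SUM44. The lower BT483 level passed the threshold under several other settings, in both comparisons with near cis totals in place of the distance background (-0.34, adjusted p = 0.0334 and -0.32, adjusted p = 0.0443).

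Among RIT2 fragments 0 of 150 were called by edgeR or by DESeq2 in BT483 against GM06990, with 19 at an unadjusted p under 0.05. Of all tested fragments, edgeR called 6.87% higher and 6.26% lower there. TMM scaling called 6 of the 150 lower. It called 674 of all 10048 tested fragments lower and moved the chromosome 18 median to -0.17. In SUM44 against GM06990 11.1% of all tested fragments were called higher and 9.07% lower. Of the RIT2 fragments 1 of 150 (0.667%) was called there, the 295 bp fragment from 40421576 to 40421870. It had 7 and 30 contacts in BT483, 15 and 15 in GM06990, and 60 and 52 in SUM44, a log2 change of 0.90 (SE 0.320, adjusted p = 0.0463), and the call was lost in 11 of 13 other settings. It reached 50 contacts in SUM44 only, the line where it was high. Its neighbour from 40420124 to 40421575 was the only fragment of any of the 4 genes called between the breast cancer lines, where 0.776% of all tested fragments were higher and 0.717% lower, and 1.32% and 0.395% of those on chromosome 18. It had 8 and 41 contacts in BT483 and 95 and 86 in SUM44, with 40 and 38 in GM06990, a log2 change of -1.06 in BT483 against SUM44 (SE 0.270, adjusted p = 0.0431). The RIT2 start fragment had 17 and 59 contacts in BT483, 38 and 38 in GM06990, and 75 and 52 in SUM44. It stood near the expected number, at 0.950, 1.09 and 0.932, above the median RIT2 fragment (0.605, 0.748 and 0.752). A fragment just upstream, from 40696567 to 40701751, had the highest ratio of the gene in BT483 (0.951) and GM06990 (1.25), and the fragment from 40602612 to 40609058 that in SUM44 (1.24).

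No difference between lines was called for the stretch of SYT4, the gene with the fewest fragments. Its stretch stood at 0.621 and 0.684 times expected in BT483, 0.685 and 0.675 in GM06990, and 0.812 and 0.791 in SUM44, so SUM44 was above both other lines. The log2 change was -0.05 (SE 0.113, adjusted p = 0.761) in BT483 against GM06990, 0.24 (SE 0.109, adjusted p = 0.104) in SUM44 against GM06990 and -0.29 (SE 0.110, adjusted p = 0.0959) in BT483 against SUM44. Among its 19 tested fragments 2 (10.5%) were lower in BT483 than in GM06990 and 0 higher. Of all tested fragments 6.26% were called lower there, and 1.89% of those on chromosome 18. The fragment from 40869670 to 40873827, upstream of the gene, had 8 and 16 contacts in BT483 and 31 and 21 in GM06990, a log2 change of -1.30 (SE 0.409, adjusted p = 0.0340). The one from 40842896 to 40845140, downstream of the gene, had 6 and 20 against 26 and 25, a change of -1.18 (SE 0.378, adjusted p = 0.0368). In the order named, these 2 calls were lost in 7 and 8 of 14 other settings. In SUM44 against GM06990 2 were higher (10.5%), both short, which is near the 11.1% of all tested fragments called higher. The 214 bp fragment from 40851944 to 40852157 within the gene had 83 and 48 contacts against 6 and 15, a change of 1.67 (SE 0.449, adjusted p = 0.00912), and 2 and 61 in BT483, whose replicates stood far apart there. The 776 bp fragment from 40845595 to 40846370 had 51 and 63 against 18 and 8, a change of 1.18 (SE 0.364, adjusted p = 0.0217). DESeq2 called none of the 4 SYT4 fragments.

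The SYT4 start fragment by the GRCh37 gene body had 17 and 54 contacts in BT483, 28 and 20 in GM06990, and 78 and 40 in SUM44. That was 0.926, 0.735 and 0.933 times expected. The fragment on the other side of that border, from 40853456 to 40857561, had 8 and 55, 22 and 37, and 66 and 63 contacts, or 0.821, 0.902 and 1.02 times expected. Neither fragment passed the test in any comparison. The highest ratio of SYT4 in BT483 (1.02) and SUM44 (1.20) belonged to the fragment from 40860341 to 40865592, upstream of the start. In GM06990 it belonged to that from 40837790 to 40840293 (1.08), downstream of the gene.

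SETBP1, the farthest gene, had more contacts in BT483 than in GM06990. Its stretch, from 42240799 to 42670720, stood at 0.580 and 0.754 times expected in BT483, 0.384 and 0.446 in GM06990, and 0.509 and 0.523 in SUM44. The 3 lines did not overlap, although the BT483 replicates lay furthest apart. The log2 change in BT483 against GM06990 was 0.69 (SE 0.136, adjusted p = 0.00546), and it passed in each of 14 other settings, with values from 0.48 to 0.88. In SUM44 against GM06990 it was 0.32 (SE 0.135, adjusted p = 0.0838), and in BT483 against SUM44 0.38 (SE 0.134, adjusted p = 0.0739). The latter passed by DESeq2 (0.38, adjusted p = 0.0485) and with near cis totals (0.77, adjusted p = 0.00548).

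Averaged over the whole sequence on either side of SETBP1, the replicates of BT483 and GM06990 overlapped. Between SYT4 and SETBP1 the level was 0.540 and 0.629 in BT483 and 0.615 and 0.584 in GM06990. Beyond SETBP1 it was 0.640 and 0.757 against 0.628 and 0.662. Close to the gene the 100 kb bins varied. At 3.45 Mb, mostly beyond the stretch, BT483 had 0.711 and 0.796 and GM06990 0.442 and 0.460. The replicates overlapped at 2.95 Mb (0.363 and 0.618 against 0.381 and 0.389). They also overlapped at 3.55 Mb (0.604 and 0.818 against 0.573 and 0.639) and, inside the stretch, at 3.05 Mb (0.360 and 0.673 against 0.275 and 0.382). Far beyond the gene, at 4.35 Mb, BT483 was again higher (0.819 and 0.727 against 0.374 and 0.581). At 4.85 Mb the replicates overlapped (0.574 and 0.667 against 0.752 and 0.655). The gap was thus not limited to the gene. Averaged over each of 3 equal parts of the gene, the gap was present. In the last part BT483 stood at 0.768 ± 0.0834, GM06990 at 0.471 ± 0.0260 and SUM44 at 0.582 ± 0.0207. In the first part they stood at 0.580 ± 0.188, 0.370 ± 0.0816 and 0.485 ± 0.00814. Whether the gene differed from its neighbours was not tested.

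Counts per SETBP1 fragment were low, and the minimum for a test favoured fragments high in BT483. Of the 35 that reached 50 contacts, 23 did so in BT483 only, 6 in SUM44 only and 0 in GM06990, so their direction supports nothing on its own. In BT483 against GM06990 6 of them (17.1%) were higher and 0 lower, where 6.87% of all tested fragments were higher and 6.26% lower. In SUM44 against GM06990 1 (2.86%) was higher and 0 lower, where 11.1% of all tested fragments were higher and 9.07% lower. With no minimum, 14 of all 149 fragments were higher in BT483, where 4.18% of all fragments were, and 4 in SUM44, where 6.45% of all fragments were. The SUM44 count of SETBP1 was thus below that background. The fragment from 42589189 to 42590121 was called in both comparisons. It had 6 and 35 contacts in BT483, 5 and 2 in GM06990, and 29 and 29 in SUM44, a log2 change of 1.99 (SE 0.556, adjusted p = 0.0180) in BT483 and 2.19 (SE 0.524, adjusted p = 0.00376) in SUM44. It reached 50 contacts in SUM44 only, so its SUM44 increase was selected by the minimum. Its call was lost in BT483 without BT483 replicate 2 or GM06990 replicate 2. The fragment from 42558615 to 42559479 had 5 and 45 contacts in BT483 against 6 and 3 in GM06990, a change of 1.89 (SE 0.522, adjusted p = 0.0169). That from 42397921 to 42399458 had 6 and 50 against 4 and 7, a change of 1.78 (SE 0.503, adjusted p = 0.0187).

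The SETBP1 start fragment had 5 and 37 contacts in BT483, 3 and 10 in GM06990, and 12 and 14 in SUM44, too few in every line for the test. Its ratio was 0.739 in BT483 (exact Poisson 95% interval 0.532 to 0.999), 0.318 in GM06990 (0.169 to 0.544) and 0.354 in SUM44 (0.231 to 0.518). The fragment on the other side of the cut site, from 42253582 to 42260652, had 3 and 29, 3 and 8, and 18 and 17 contacts. Highest ratios of the gene were at 42590122 to 42594187 in BT483 (1.35), 42424802 to 42430298 in GM06990 (0.935) and 42627276 to 42631272 in SUM44 (1.02).

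Fragments of 1 gene differed widely among themselves. For PIK3C3 the ratio to the expected number ran from 0.135 to 1.61 in BT483, from 0.0138 to 1.40 in GM06990 and from 0.158 to 1.40 in SUM44. The lowest of these were pieces of 7 and 8 bp. The quartiles of PIK3C3 were 0.532 and 0.813 in BT483, close to the 0.511 and 0.839 of the 1263 other telomeric targets. In GM06990 they were 0.361 and 0.629, below the 0.447 and 0.843 of those targets. Over the 391 fragments of the 4 genes, Spearman's rho between fragment length and this ratio reached 0.315 for BT483, 0.473 for GM06990 and 0.250 for SUM44. Over all 3162 targets it was 0.153, 0.302 and 0.140, highest in GM06990 in both sets. These correlations are across fragments of the same libraries and carry no p. In SETBP1, 0 of 149 fragments stood above the expected number in GM06990, against 15 (10.067%) in BT483 and 1 (0.671%) in SUM44. Of the 1263 other telomeric targets, 12.985% did so in BT483 and 13.618% in both GM06990 and SUM44. The SETBP1 share was thus below that of these targets in every line, and BT483 came nearest to it. At the 20 kb limit, the 8 fragments just inside had medians of 0.644, 0.680 and 0.704 in BT483, GM06990 and SUM44, and the 8 just outside 0.653, 0.538 and 0.557.

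Contacts came from across the captured region, and, of 3 parts of it of equal length, the telomeric one gave the highest level for RIT2 in the breast cancer lines and for SYT4 in all lines. For the centromeric and the telomeric part, the RIT2 level was 0.518 ± 0.00701 and 0.758 ± 0.0625 in BT483, and 0.589 ± 0.0126 and 0.901 ± 0.0360 in SUM44. In GM06990 it was 0.736 ± 0.00113 and 0.742 ± 0.00748. SYT4 went from 0.598 ± 0.0524 to 0.812 ± 0.0690 in BT483, from 0.616 ± 0.0365 to 0.798 ± 0.0135 in GM06990 and from 0.644 ± 0.0165 to 0.967 ± 0.00105 in SUM44. PIK3C3 varied little by place in every line, at 0.719, 0.669 and 0.666 in BT483, 0.504, 0.475 and 0.508 in GM06990, and 0.705, 0.642 and 0.715 in SUM44 for the parts in order from the centromere. For SETBP1 these parts stood at 0.674, 0.629 and 0.693 in BT483, 0.374, 0.380 and 0.467 in GM06990, and 0.573, 0.437 and 0.531 in SUM44. So the excess of the breast cancer lines over GM06990 at PIK3C3 was present from all parts of the captured region. The captured fragment from 38689773 to 38699560 had the highest ratio in GM06990 both with PIK3C3, at 1.25 (26 contacts, interval 0.814 to 1.83), and with RIT2, at 1.69 (49 contacts, interval 1.25 to 2.24). In SUM44 the highest were 38651161 to 38666450 for PIK3C3 (1.65, 35 contacts), 39062134 to 39068670 for RIT2 (1.59, 142 contacts) and 38501885 to 38504751 for SETBP1 (1.32, 81 contacts). In BT483 the highest for SETBP1 was 38876843 to 38886743 (1.90, 29 contacts). The other leading captured fragments rested on 1, 2, 11 or 14 contacts. Each leading fragment was picked as the highest of 258, and the intervals do not allow for that choice. Of the 258 captured fragments, those below 1 numbered 223, 256 and 227 for PIK3C3 in BT483, GM06990 and SUM44.

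No pair of a captured and a target fragment of the 4 genes was called as a contact above the distance background. In each line 100878 such pairs were tested, with a negative binomial upper tail, an adjusted p of at most 0.01 and at least 5 contacts as the rule. The count of called pairs was 0 in BT483, GM06990 and SUM44, and the called share was 0% for the whole chromosome 18 region too. Pairs with at least 5 contacts numbered 33 in BT483, 19 in GM06990 and 349 in SUM44, of which 31, 13 and 116 had an unadjusted one-sided p under 0.05. A Poisson background also gave 0 for the genes, and 13, 3 and 1 pairs elsewhere in the region. Per gene and line, the leading pair was that with the smallest unadjusted p, not the largest ratio. For PIK3C3 in BT483 it had 6 contacts, against 0.404 expected, of the captured fragment at 38524769 with the fragment from 39546506 to 39548487. In SUM44, 9 contacts joined the captured fragment at 38591424 to the PIK3C3 fragment from 39524654 to 39529349, against 1.39 expected. The SYT4 start fragment had 5 contacts with the captured fragment at 39189561 in BT483, against 0.423 expected. Depth limits this test. In simulated SUM44 counts the rule found 35% of pairs raised 10-fold and 80.5% of pairs raised 20-fold. Only pairs with at least 1 expected contact were raised there. The leading SUM44 pairs of RIT2, SYT4 and SETBP1 had 0.447, 0.544 and 0.520 expected, so this recovery does not apply to pairs like these.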

How the data were processed

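Capture Hi-C counts of the lines BT483, GM06990 and SUM44 were used as deposited by the authors, in 1 table per line of raw counts per pair of captured and target fragment, in which every replicate has its own column. CASAVA 1.8 and GRCh37 (hg19) are named in the submitters' processing notes, while the aligner is not given in the sources used here. Captured fragment positions were deposited in bp, and the trans counts beside each captured fragment stood for its capture efficiency.

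Counts were summed over captured fragments. Expected numbers came from a negative binomial regression per replicate and region on log10 distance, as a 4-knot cubic spline, and on the log of the trans count. Fragments with at least 50 contacts in 1 line, and separately 100 kb windows with the 4 gene stretches, were tested in 1 fit over all 6 regions with edgeR 4.0.16 (R 4.3.3, quasi-likelihood F test, log expected count as offset, Benjamini-Hochberg, threshold 0.05). Of the 391 fragments of the 4 genes 270 were tested, and 606 windows. Alternatives were DESeq2 1.42.0, TMM factors, near cis totals, no minimum, chromosome 18 alone, the replicate number as a block and each replicate left out. 2 more, only fragments of at least 1000 bp and fragment length in the background, were chosen after seeing the data. On simulated BT483 against GM06990 counts, 41.3% of fragments and 99% of windows changed 2-fold were recovered, and 0.513% and 86% of those changed 1.5-fold.

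Named fragments are those at the gene starts, the highest ratio per gene and line, up to 3 called with the largest change per gene and comparison, and the leading captured fragment. Members and lists were chosen with earlier results of these data known. Scripts ran in Python 3.11.15.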

Additional observations from a re-analysis of the deposited data

Results flagged for a closer look

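A fragment of RIT2, from 40420124 to 40421575, differed between the breast cancer lines by a direct test. Its log2 change in BT483 against SUM44 was -1.06 (SE 0.270, adjusted p = 0.0431 by edgeR's quasi-likelihood F test), with 8 and 41 contacts in BT483 and 95 and 86 in SUM44. GM06990 had 40 and 38. The call was lost in 7 of 14 other settings, with adjusted p from 0.0509 to 0.413 there, by DESeq2 (0.335) among them.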

How the results depend on the processing

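The distance-matched ratios had no test and are given here in the order BT483, GM06990 and SUM44. Matching within 5% gave 0.494, 0.422 and 0.48 for PIK3C3, 0.519, 0.519 and 0.961 for RIT2, 0.655, 0.645 and 1.05 for SYT4 and 0.396, 0.211 and 0.27 for SETBP1. Per kb of fragment they were 0.618, 0.527 and 0.599 for PIK3C3, 0.622, 0.634 and 1.08 for RIT2, 0.655, 0.638 and 0.989 for SYT4 and 0.53, 0.29 and 0.375 for SETBP1. Against the regression background they were 0.679, 0.498 and 0.693 for PIK3C3, 0.627, 0.728 and 0.746 for RIT2, 0.653, 0.68 and 0.801 for SYT4 and 0.667, 0.415 and 0.516 for SETBP1. With fragments of at least 1000 bp alone they were 0.544, 0.48 and 0.532 for PIK3C3, 0.519, 0.525 and 0.909 for RIT2, 0.694, 0.671 and 1.02 for SYT4 and 0.463, 0.257 and 0.326 for SETBP1. With fragment length in the regression they were 0.728, 0.55 and 0.747 for PIK3C3, 0.637, 0.743 and 0.755 for RIT2, 0.639, 0.659 and 0.779 for SYT4 and 0.677, 0.424 and 0.526 for SETBP1. 

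Among 270 tested fragments of the 4 genes, 24 were higher (8.89%) and 3 lower (1.11%) in BT483 against GM06990. Of all tested fragments, 6.87% were higher and 6.26% lower there. The counts that follow are again for the 4 genes. TMM factors gave 13 and 9, DESeq2 9 and 0, near cis totals 26 and 7, chromosome 18 alone 23 and 1, the replicate block 24 and 0, and length in the regression 21 and 5. Fragments of at least 1000 bp gave 12 higher. Leaving out 1 replicate gave 5 to 38 higher and 0 to 11 lower, with 5 without BT483 replicate 2 and 38 without BT483 replicate 1. In SUM44 against GM06990, 25 were higher (9.26%) and 0 lower, where 11.1% of all tested fragments were higher and 9.07% lower. TMM factors gave 11, DESeq2 10 and fragments of at least 1000 bp 7, and leaving out 1 replicate gave 7 to 39 higher and 0 to 1 lower. In BT483 against SUM44, 0 were higher and 1 lower (0.370%), where 0.776% of all tested fragments were higher and 0.717% lower. Near cis totals gave 14 and 5, TMM factors 4 and 2, DESeq2 0 lower, no minimum 0 lower, chromosome 18 alone 6 lower and length in the regression 3 lower. Leaving out 1 replicate gave 0 to 2 higher and 0 to 6 lower. TMM factors moved the median of all chromosome 18 fragments to -0.17 in BT483 and -0.19 in SUM44 against GM06990, from -0.02 and 0.05. Calls over all 10048 tested fragments moved too. In BT483 against GM06990 they were 690 higher and 629 lower, with TMM factors 931 and 674, and with DESeq2 330 and 285. In SUM44 against GM06990 they were 1114 and 911, then 853 and 760, and 458 and 465. In BT483 against SUM44 they were 78 and 72, and with near cis totals 287 and 349.

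Of the stretches, PIK3C3 in BT483 against GM06990 lost its call with TMM factors (0.21) and ranged from 0.29 to 0.59 with 1 replicate left out. In SUM44 it ranged from 0.44 to 0.51. SETBP1 in BT483 against GM06990 kept its call throughout. RIT2 passed with near cis totals in BT483 against GM06990 (-0.34), ranging from -0.28 to -0.15 with 1 replicate left out. In BT483 against SUM44 it passed with near cis totals (-0.32) and on chromosome 18 alone (-0.25), ranging from -0.31 to -0.19. In SUM44 against GM06990 it changed sign, to -0.02 with near cis totals and -0.01 with fragments of at least 1000 bp. SYT4 ranged from -0.13 to 0.01 in BT483 against GM06990, from 0.22 to 0.26 in SUM44 against GM06990 and from -0.37 to -0.23 in BT483 against SUM44. PIK3C3 ranged from -0.19 to 0.11 in BT483 against SUM44. SETBP1 in SUM44 against GM06990 passed with the replicate block (0.32) and ranged from 0.21 to 0.43. In BT483 against SUM44 it passed with near cis totals (0.77), DESeq2 (0.38) and the replicate block (0.36), and ranged from 0.17 to 0.55. Without BT483 replicate 1, calls were gained by RIT2 in both BT483 comparisons and SETBP1 in BT483 against SUM44. Without BT483 replicate 2 they were gained by RIT2 and SYT4 in BT483 against SUM44, and without either BT483 replicate by SYT4 and SETBP1 in SUM44 against GM06990. Causes of these shifts were not tested.

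Replicate numbers did not pair the samples: deviations of same-numbered replicates correlated at -0.0464, -0.00293 and 0.00820 over targets, and the replicate block moved no member count by over 1.5 times except the 3 lower to 0. Of the named fragments, the PIK3C3 start in BT483 against GM06990 changed sign with length in the regression (0.02) and ranged from -0.44 to 0.09 with 1 replicate left out, and the SYT4 start in SUM44 against GM06990 from -0.11 to 0.65. In BT483 against SUM44 the RIT2 start ranged from -0.09 to 0.24 and the SYT4 start from -0.27 to 0.50, both below 0 without BT483 replicate 1 (-0.02 and -0.08) and without SUM44 replicate 2. None of these had passed. Over 25 named fragment results and their alternatives, 254 of 319 values kept direction and call, 58 lost the call and 7 changed sign. Pair calls of the 4 genes were 0 in all settings run. With fewer than 50 contacts in every line, 114 SETBP1 fragments could not be tested, and the fragment test recovers few changes of 1.5-fold.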
